A study of Mus musculus with 4 samples.

Results

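Clustered mid-width H3K9ac peaks were taken from the deposited list of peaks that differed between aorta macrophages of mice under chronic intermittent hypoxia (CIH) and under room air (RA). A peak was a member if it was over 250 and up to 1000 bp wide, touched no other peak, and had its nearest peak on the same chromosome at a gap of up to 10000 bp. Of 20943 peaks in the list, 1963 (9.37%) met the rule. The rule used width and distance only, and the direction of each peak, higher in CIH or higher in RA, took no part in it.

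All mice were C57BL/6J. The CIH mice breathed 6.1% O2 for 90 s alternating with 21% O2 for 90 s during the 12 light hours of each day, for 20 weeks, and the RA mice were kept in matching cages in which the gas delivered was always 21% O2. Macrophages were collected from digested aortas with magnetic beads against CD11b, a surface integrin chain that neutrophils and other myeloid cells also carry. ChIP-Seq was carried out for H3K9ac and H3K27me3 on 4 libraries, each mark once under CIH and once under RA, without an input sample. The title of the RA library of the second mark reads H3K72me3, and it was taken as H3K27me3 from its antibody label. The list therefore has no replicate error, and no test of CIH against RA was possible. It gives the place, width and direction of each peak but no height, so the size of a change is unknown. The sequencing yields stated in the paper are larger for the CIH library of each mark, and their part in the directions below was not tested. All intervals below are exact Clopper-Pearson 95% intervals. They cover counting error only, and they are too narrow where neighbouring peaks share a region.

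H3K9ac is an acetyl mark on the tail of histone H3 that is found at active promoters and at many enhancers, where the nucleosomes on either side of the open start site carry it. A promoter can thus give more than 1 peak, separated by a short unmarked stretch. In a list of differential peaks, a gap holds no called difference, which need not mean absence of the mark. H3K27me3 is the mark of Polycomb repression and is rarely found on the same nucleosomes. In macrophages, acetylation at promoters of inflammatory and stress genes changes within hours of a stimulus.

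In 9 members the place of the peak relative to a transcription start could be read. The sequences below are from the 6 of them with over 100 unmasked bases held before the start and no start of another gene found among those bases. Each is the longest unmasked run, at most 300 bases, of the bases held upstream of the start, printed 5′ to 3′ on the plus strand of mm9. Capitals mark 5 short motifs, searched on both strands. The ETS motif was searched as CCGGAA. For the GC box, which binds Sp factors, the letters were GGGCGG. The CCAAT box was searched by those letters alone. As the core of the cyclic AMP response element, here called the CRE core, TGACGT was used. The AP-1 motif was searched as TGACTCA. The Nr4a3 run lies at chr4:48057910-48058126, Nfkb2 at chr19:46379651-46379950, Blcap at chr2:157392098-157392397, Dnaja1 at chr4:40669701-40669954, Syf2 at chr4:134486747-134486894 and Chmp4b at chr2:154482309-154482600.
Nr4a3, higher in CIH: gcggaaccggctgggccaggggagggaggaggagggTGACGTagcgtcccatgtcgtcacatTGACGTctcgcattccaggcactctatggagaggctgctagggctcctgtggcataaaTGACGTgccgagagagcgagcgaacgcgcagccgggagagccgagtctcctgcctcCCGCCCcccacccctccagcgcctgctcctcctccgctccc
Nfkb2, higher in CIH: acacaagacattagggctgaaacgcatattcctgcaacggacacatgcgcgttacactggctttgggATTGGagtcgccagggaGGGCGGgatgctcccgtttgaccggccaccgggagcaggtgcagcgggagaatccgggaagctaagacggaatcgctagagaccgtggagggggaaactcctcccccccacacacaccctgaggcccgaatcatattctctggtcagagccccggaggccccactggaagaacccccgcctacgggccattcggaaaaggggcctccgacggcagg
Blcap, higher in CIH: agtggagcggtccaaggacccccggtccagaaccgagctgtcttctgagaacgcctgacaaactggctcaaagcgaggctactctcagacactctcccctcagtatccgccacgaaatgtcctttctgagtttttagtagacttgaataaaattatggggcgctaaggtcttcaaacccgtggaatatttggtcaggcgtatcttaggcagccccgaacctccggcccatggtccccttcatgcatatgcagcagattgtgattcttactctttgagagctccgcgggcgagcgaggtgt
Dnaja1, higher in RA: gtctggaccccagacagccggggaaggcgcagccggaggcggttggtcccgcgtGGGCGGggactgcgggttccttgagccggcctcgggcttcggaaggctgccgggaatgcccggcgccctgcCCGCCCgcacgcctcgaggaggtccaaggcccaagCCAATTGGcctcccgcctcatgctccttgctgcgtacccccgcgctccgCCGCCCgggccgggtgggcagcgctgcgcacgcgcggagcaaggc
Syf2, higher in RA: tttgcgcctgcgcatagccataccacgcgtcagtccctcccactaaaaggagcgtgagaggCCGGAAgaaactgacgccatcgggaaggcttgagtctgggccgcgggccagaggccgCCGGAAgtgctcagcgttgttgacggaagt
Chmp4b, higher in RA: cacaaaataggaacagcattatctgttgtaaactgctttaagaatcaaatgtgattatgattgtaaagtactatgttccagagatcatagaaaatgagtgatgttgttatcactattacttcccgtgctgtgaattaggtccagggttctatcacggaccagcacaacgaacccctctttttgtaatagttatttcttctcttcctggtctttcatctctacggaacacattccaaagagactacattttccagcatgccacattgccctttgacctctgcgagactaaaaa

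The run before Nr4a3, an immediate-early nuclear receptor, held 3 CRE cores and 1 GC box in 217 bases, with 67.3% GC. Dnaja1, a heat shock cochaperone, had 75.6% GC over 254 bases, 3 GC boxes and 1 palindromic stretch that reads as a CCAAT box on both strands. Syf2, a spliceosome component, had 2 ETS motifs in 148 bases. Blcap and Chmp4b had none of the 5 motifs, and Chmp4b was the poorest in GC at 38.7%. Over the first 300 bases, 37 members had sequence without masked bases, and their median GC was 52.7% (range 38.3 to 77.3), against 52.3% over all 388 peaks of the same table and window. A GC box was in 27% of these members and 29.9% of all these peaks, a CCAAT box in 24.3% and 32.5%, an ETS motif in 8.11% and 14.4%, a CRE core in 8.11% and 8.25%, and an AP-1 motif in 2.7% and 5.15%. With 3 members holding an ETS motif, 3 a CRE core and 1 an AP-1 motif, these shares are coarse.

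Of the 1963 members, 959 were higher in CIH and 1004 in RA, which is 48.9% higher in CIH (46.6 to 51.1) beside 45.4% over the whole list. Mid-width peaks whose nearest peak was over 100 kb away, 1831 in number, were higher in CIH in 45.4% (43.1 to 47.7), and the 5199 with a nearest peak at 10 to 100 kb in 43.5% (42.2 to 44.9). The interval of the members lies above that of the peaks at 10 to 100 kb and overlaps that of the peaks beyond 100 kb. Gaps of members ranged from 50 to 10000 bp with a median of 3900 bp, and 504 members (25.7%) lay within 500 bp of their nearest peak.

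A class given as a range of gaps takes in its upper bound and not its lower one. The members closest to another peak were the ones most often higher in CIH. At gaps up to 100 bp, 84 of 104 members were higher in CIH (80.8%, 71.9 to 87.8), and at 100 to 500 bp 222 of 400 (55.5%, 50.5 to 60.4). From there on the share was 49.3% at 500 to 1000 bp, 43.3% at 1000 to 2000 bp, 45.1% at 2000 to 5000 bp and 44.1% at 5000 to 10000 bp. Up to 500 bp the share was thus 60.7% (56.3 to 65), and beyond 500 bp 44.8% (42.2 to 47.4), which is near the share of the whole list.

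Width moved with direction as well. The median width was 600 bp in members higher in CIH and 450 bp in members higher in RA, against 550 and 400 bp in the mid-width peaks beyond 100 kb. Among members 300 to 400 bp wide, 31.7% were higher in CIH, and among those 850 to 1000 bp wide 69.4%. Within each of 4 width classes, the share higher in CIH was higher at gaps up to 500 bp than beyond, but only the narrowest members had intervals that did not overlap. In these, 84 of 166 members with a close peak were higher in CIH (50.6%, 42.7 to 58.4), against 135 of 524 without one (25.8%, 22.1 to 29.7) and 211 of 823 mid-width peaks beyond 100 kb (25.6%, 22.7 to 28.8). At 850 to 1000 bp the values were 79.3% (68.9 to 87.4), 65.5% (58.6 to 72) and 75.6% (68.4 to 81.9).

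**Figure D1:**
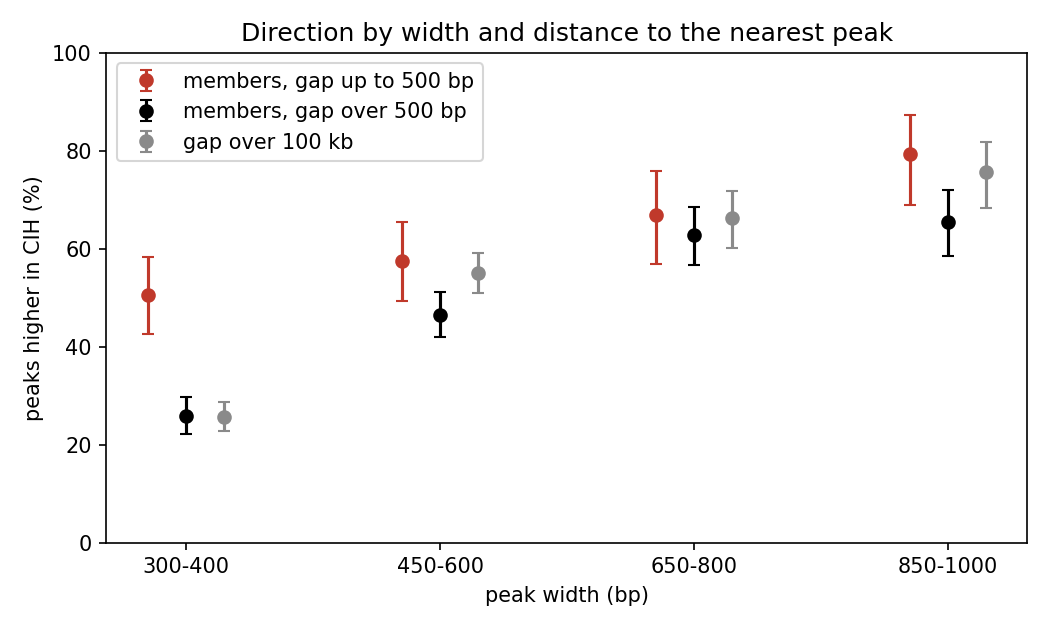
Share of peaks higher in CIH (%) by peak width (bp), for members with a gap up to 500 bp, members with a larger gap, and mid-width peaks whose nearest peak is over 100 kb away. Points are shares and bars exact 95% intervals. The close members of 300 to 400 bp sit at 50.6% while the other 2 sets sit at 25.8% and 25.6%.

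At the edges of the rule, peaks of 300 bp that touched none and had a peak within 10 kb, the narrowest members, were higher in CIH in 56 of 254 cases, and those of 250 bp, just outside, in 28 of 275. Members of 1000 bp were higher in CIH in 47 of 60 cases and peaks of 1050 bp in 30 of 47. At the gap limit, 3 members lay at exactly 10000 bp and 3 mid-width peaks at 10050 bp.

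Whether close peaks had the same direction depended on the gap. Over all members, 1096 of 1963 had the direction of their nearest peak (55.8%, 53.6 to 58), beside 52.1% of all neighbouring pairs of the list that do not touch. Up to 500 bp the directions were the same in 386 of 504 members (76.6%, 72.6 to 80.2). At 500 to 5000 bp they were the same in 284 of 632 (44.9%, 41 to 48.9), and at 5000 to 10000 bp in 426 of 827 (51.5%, 48 to 55). Neighbouring peaks of the list that touch none and lie over 10 kb apart shared a direction in 4964 of 9469 pairs (52.4%, 51.4 to 53.4), with 51% at 10 to 20 kb, 51.5% at 20 to 50 kb, 51.9% at 50 to 100 kb and 53.4% beyond 100 kb. Agreement within 500 bp was therefore above every wider class, and agreement at 500 to 5000 bp was below that of all pairs over 10 kb apart, with intervals that do not overlap in either case. Against the pairs at 10 to 20 kb alone (47.7 to 54.3), the interval at 500 to 5000 bp does overlap. A pair of mutually nearest members counts for each of them, while pairs over 10 kb apart count once and take peaks of any width. Counted once per pair, neighbours with a member at 500 to 5000 bp had an interval of 40.9 to 50.1, below all pairs over 10 kb apart. The interval where both were members, 37.5 to 52.1, overlaps that of all pairs over 10 kb apart.

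Pairs counted in finer steps below already agreed less often at 250 to 500 bp than at 100 to 250 bp. By class, agreement of members with their nearest peak dropped between the class ending at 500 bp and the one ending at 1000 bp. It was 66.3% (56.4 to 75.3) at gaps up to 100 bp, 86.4% (79.6 to 91.6) at 100 to 200 bp and 75.4% (69.7 to 80.5) at 200 to 500 bp, then 45.7% (37.2 to 54.3) at 500 to 1000 bp, 45.3% at 1000 to 2000 bp and 44.5% at 2000 to 5000 bp. Within 500 bp, 247 of 306 members higher in CIH had a nearest peak of the same direction (80.7%, 75.8 to 85), and 139 of 198 members higher in RA (70.2%, 63.3 to 76.5). At 500 to 5000 bp these became 108 of 288 (37.5%, 31.9 to 43.4) and 176 of 344 (51.2%, 45.7 to 56.6). Over those 632 members, 43.7% of the nearest peaks themselves were higher in CIH (39.8 to 47.6), so members higher in RA had a nearest peak higher in CIH somewhat more often than members higher in CIH did.

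**Figure D2:**
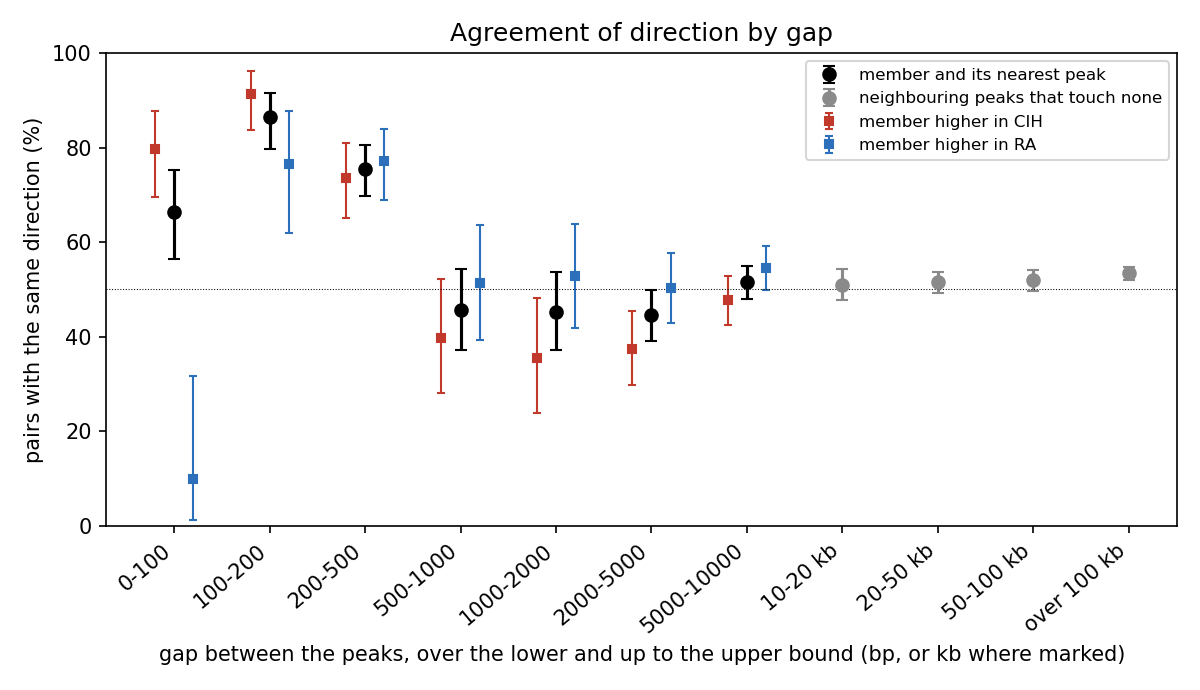
Share of pairs with the same direction (%) by gap class (bp, or kb where marked). Black points are members and their nearest peak, red and blue squares the members higher in CIH and in RA, grey points neighbouring peaks of the list that touch none, and bars are exact 95% intervals. The black points fall from 86.4% at 100 to 200 bp to 45.7% at 500 to 1000 bp, and the grey ones lie between 51% and 53.4%.

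Counted as pairs of neighbouring peaks with at least 1 member, 282 of 372 pairs within 500 bp had 1 direction (75.8%, 71.1 to 80.1), 178 both higher in CIH and 104 both higher in RA. Neighbouring pairs without any member gave 66 of 85 (77.6%, 67.3 to 86) at the same gaps, a share within the interval of the pairs with a member. At 500 to 5000 bp, pairs with a member agreed in 213 of 468 (45.5%, 40.9 to 50.1) and pairs without one in 59 of 119 (49.6%, 40.3 to 58.9). Where both neighbours were members, 111 of 141 agreed within 500 bp (78.7%, 71 to 85.2), 85 of 190 at 500 to 5000 bp (44.7%, 37.5 to 52.1) and 125 of 251 at 5000 to 10000 bp (49.8%, 43.5 to 56.2).

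The closest pairs differed by direction. Peaks start and end in steps of 50 bp, so 50 bp is the smallest gap without touching. At 50 bp there were 32 pairs with a member, of which 23 were both higher in CIH, 0 both higher in RA and 9 opposite, and at 100 bp the counts were 24, 1 and 18. Over the whole list as well, 0 of 42 pairs at 50 bp and 3 of 57 at 100 bp were both higher in RA. From 150 bp on pairs both higher in RA appeared, with 11 of 52 at 150 bp, 15 of 51 at 200 bp and 28 of 59 at 250 bp, the gap at which they were most frequent. At gaps of 150, 200 or 250 bp, opposite pairs were rare, 18 of 162, against 45 of 135 at 250 to 500 bp and 53 of 96 at 500 to 1000 bp. Up to 100 bp, 67 of 84 members higher in CIH but 2 of 20 members higher in RA had a nearest peak of the same direction. Whether 2 peaks of 1 direction are left apart or joined depends on rules of the peak calling that are not given in the sources used here.

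**Figure D3:**
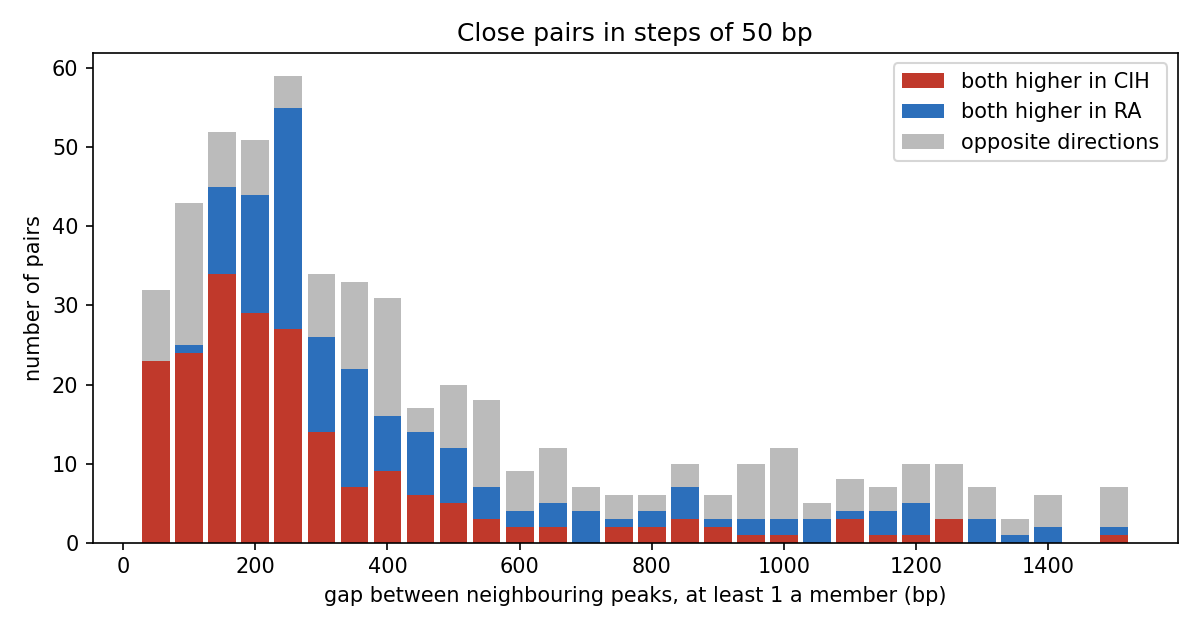
Number of neighbouring pairs with at least 1 member, by the gap between the peaks in steps of 50 bp, stacked by direction (both higher in CIH, both higher in RA, opposite). Pairs are most frequent at 250 bp (59 pairs), and at 50 bp no pair is both higher in RA.

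Among pairs in which both peaks were members, 10 pairs lay 50 bp apart with both higher in CIH, and 3 with opposite directions. Examples of the first kind were chr16:94757951-94758600 and chr16:94758651-94759250 (650 and 600 bp), chr16:95794451-95795050 and chr16:95795101-95795550 (600 and 450 bp), chr19:27921451-27922100 and chr19:27922151-27922650 (650 and 500 bp), and chr4:126698401-126699150 and chr4:126699201-126699800 (750 and 600 bp). The 3 opposite pairs were chr15:99554201-99554600 and chr15:99554651-99554950, chr3:51001051-51002000 and chr3:51002051-51002700, and chr8:109959651-109960500 and chr8:109960551-109961050. In each of these 3 the peak higher in CIH was the wider one, with 400 against 300 bp, 950 against 650 bp and 850 against 500 bp. The next opposite pairs, 100 bp apart, included chr17:27957751-27958400 (650 bp, higher in RA) with chr17:27958501-27958800 (300 bp, higher in CIH), where the order of widths was the other way round, and chr3:40998301-40998850 (550 bp, higher in RA) with chr3:40998951-40999700 (750 bp, higher in CIH).

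Agreement differed with the kind of nearest peak. For 1099 members (56%) the nearest peak was itself a member, for 391 (19.9%) it was part of a chain of touching peaks, for 236 (12%) a lone peak over 1000 bp and for 237 (12.1%) a lone peak of at most 250 bp. Beside a wide lone peak, 111 of 118 members higher in CIH (94.1%) and 23 of 118 higher in RA (19.5%) had its direction. Beside a narrow lone peak the counts were 8 of 109 (7.34%) and 121 of 128 (94.5%). This mirrors the list, in which 84.4% of the 1750 wide lone peaks but 3.58% of the 2629 narrow lone ones were higher in CIH. Where the nearest peak was a member too, agreement was 78.4% (73.1 to 83.1) within 500 bp and 47.4% (43.9 to 50.9) beyond, and where it was part of a chain 76.2% (66.9 to 84) and 51% (45.1 to 57).

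Close pairs also differed in size. Members higher in CIH with a nearest peak of the same direction within 500 bp lay at a median gap of 200 bp and spanned, with that peak, a median of 1450 bp. For members higher in RA the values were 250 and 1200 bp. In opposite pairs within 500 bp, the nearest peak of a member higher in CIH had a median width of 350 bp, and that of a member higher in RA 750 bp. At gaps over 500 bp these medians were 350 and 700 bp, so this contrast in width was not particular to close pairs.

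Linking all peaks of the list at gaps up to 10000 bp, touching peaks included, gave 1353 clusters that held a member. Of these, 787 held 1 member, 526 held 2, 37 held 3, 2 held 4 and 1 held 5. The 566 clusters with 2 or more members took in 1176 members (59.9%), and in 301 of them the members shared 1 direction (53.2%, 49 to 57.4), all higher in CIH in 142 and all higher in RA in 159. Clusters of 2 that spanned at most 2000 bp had 1 direction in 100 of 142 cases (70.4%, 62.2 to 77.8), 58 of them higher in CIH and 42 higher in RA. Clusters of 2 with a larger span had 1 direction in 187 of 384 (48.7%, 43.6 to 53.8). Of the 40 clusters with 3 or more members, 14 had 1 direction, 9 higher in CIH and 5 higher in RA. More members leave more room for a mixed cluster, so these shares are not comparable across sizes.

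The cluster with the most members, chr7:20401201-20417800, spanned 16600 bp and held 7 peaks, 5 of them members. It opened with 2 touching peaks of opposite direction, 1050 bp higher in CIH and 550 bp higher in RA. The members followed as 500 bp higher in RA, then 750, 800 and 350 bp higher in CIH, and last 300 bp higher in RA. Members of 1 direction stood next to each other in the middle of this cluster, with a 50 bp gap between the 800 and the 350 bp peak.

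The cluster at chr16:4879401-4886950 held 4 members and no other peak, 3 higher in CIH followed by 1 of 350 bp higher in RA. At chr6:100666801-100683550, 4 members of 350, 500, 750 and 300 bp were all higher in CIH over 16750 bp, in which the peaks covered 1900 bp. Among these 10 clusters, 2 had the largest shares of their span covered by peaks. At chr15:99554201-99555500, 1000 of 1300 bp were covered, with 1 member higher in CIH followed by 2 higher in RA. At chr11:62270001-62272750, 2350 of 2750 bp were covered. It held 3 members of 950, 700 and 700 bp, all higher in CIH and each 200 bp from the next.

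The other clusters of 3, taken by shortest span from 37 such clusters, were chr19:24297801-24300250 (2 higher in CIH, then 1 in RA), chr19:57683601-57686300 (1 higher in CIH, then 2 in RA), chr3:50999251-51002700 (2 higher in CIH, then 1 in RA), chr10:24031951-24038050 (all higher in CIH) and chr1:90165901-90172400 (all higher in RA). Of the 10 clusters, 3 were thus all higher in CIH, 1 was all higher in RA and 6 were mixed. In the mixed ones of 3 or 4 members the direction changed once along the cluster, always from CIH to RA in the order of the coordinates, which carry no orientation of a gene. None of these 10 clusters has a gene in the part of the peak table held here.

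**Figure D4:**
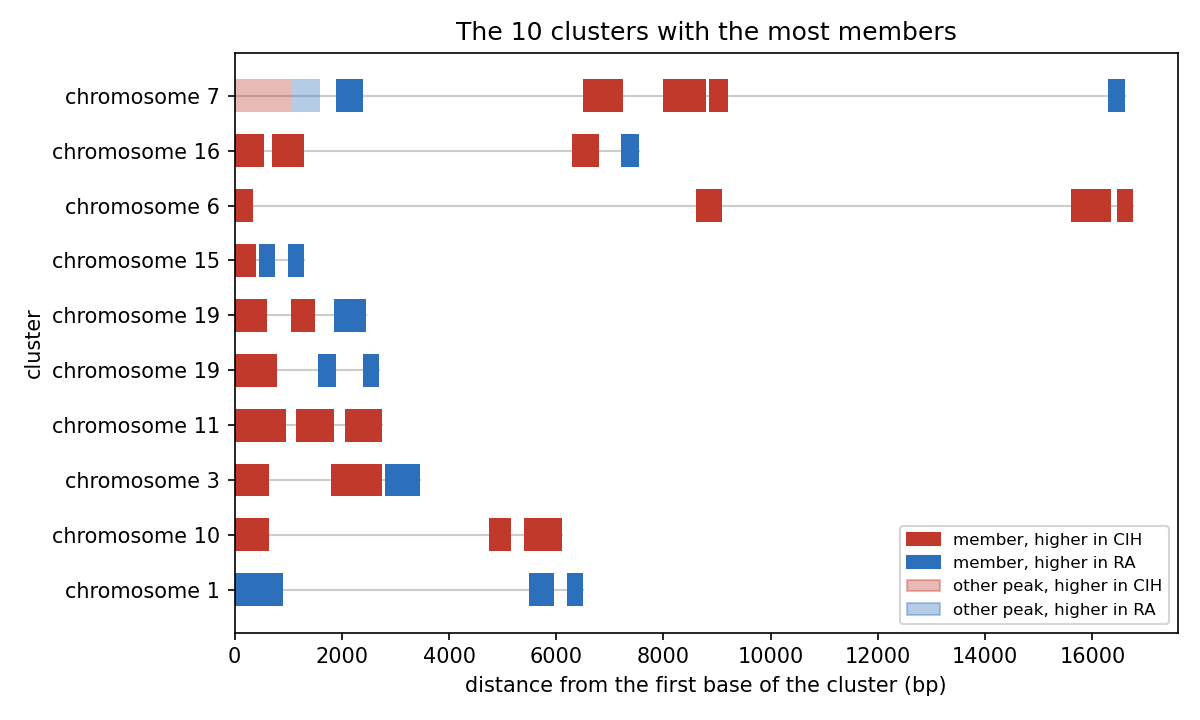
The 10 clusters with the most members, each drawn to scale from its first base (bp). Red peaks are higher in CIH and blue ones in RA, and pale peaks are not members. The clusters on chromosomes 6, 11 and 10 hold red peaks only, the one on chromosome 1 blue peaks only.

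Genes came from the paper's supplementary table of H3K9ac peaks, from which peak names, gene names and sequences were used. Its positions and signs served only to check the peaks and to read which sign is which. The part held here covers 483 peaks, and 44 members are among them, paired with 63 genes. It covers only some chromosomes, on which 808 of the 1963 members lie. Of the 44, 10 were higher in CIH and 34 in RA (22.7% higher in CIH, 11.5 to 37.8). The 60 other mid-width peaks of that table that touch none gave 23.3% (13.4 to 36), while all 483 gave 48.9%. By the paper's account the table keeps the peaks with the most reads in CIH and in RA, a fixed number, so the share over the table as a whole follows from that choice and is no reference for the members.

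All 10 gene-paired members higher in CIH had a nearest peak of the same direction, and 19 of 34 higher in RA did. Over all 1963 members these shares were 55.2% and 56.5%, and over all members within 500 bp 80.7% and 70.2%. Within 500 bp there were 8 members higher in CIH and 12 higher in RA, and 16 of the 20 had the direction of their nearest peak. Beyond 500 bp there were 2 and 22, and 13 of the 24 did. The gene lists below were written from gene names seen in that table, so their counts describe the table and give no enrichment. Members were 44 of its 483 held peaks. Held peaks higher in CIH and in RA were 6 and 17 for membrane traffic and 6 and 15 for innate immune genes. They were 6 and 7 for chromatin, 6 and 12 for ubiquitin, and 10 and 6 for cell cycle and DNA damage. They were 4 and 14 for translation and folding, 5 and 7 for hypoxia and oxidative stress, and 4 and 13 for lipids.

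Of 33 transcription factors and cofactors in the held table, the longest list, 11 were paired with a member, 4 higher in CIH and 7 in RA. Over all held peaks of this list, 20 were higher in CIH and 26 in RA. The 4 were Btg2, an antiproliferative cofactor, Nfkb2, the NF-κB subunit of the noncanonical pathway, Nr4a3, and Klf4, a zinc finger factor of myeloid differentiation. Each lay beside a wider peak that was also higher in CIH. The Klf4 member (1000 bp) was 250 bp from a peak of 1400 bp paired with the same gene, the Nfkb2 member (450 bp) 100 bp from a peak of 1300 bp, the Nr4a3 member (750 bp) 850 bp from a peak of 1300 bp paired with Nr4a3, and the Btg2 member (1000 bp) 4850 bp from a peak of 1500 bp paired with Btg2. This was the usual case beside a wide lone peak, where 111 of 118 members higher in CIH had its direction (94.1%). The held table pairs the wide peak beside the Nfkb2 member with no gene.

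The 7 higher in RA were Drap1, a transcriptional corepressor, Gfi1b, a repressor of blood lineages, Nr4a2, an immediate-early nuclear receptor like Nr4a3, Cry2, the circadian repressor, Taf4a, a subunit of the general factor TFIID, Foxo1, a forkhead factor, and Mef2d, a MADS box factor. Drap1 (650 bp), Gfi1b (200 bp) and Taf4a (1950 bp) had a nearest peak that was higher in RA too. For Nr4a2 (5250 bp), Cry2 (10000 bp), Foxo1 (150 bp) and Mef2d (4000 bp) the nearest peak was higher in CIH. The cluster of the Nr4a2 member holds 6 peaks of both directions, among them a second member, of 600 bp and higher in CIH, with no gene in the held table. Mef2d, listed with Iqgap3, had both directions within its own region, a member of 700 bp higher in RA and a peak of 1300 bp higher in CIH that the table pairs with the same 2 genes.

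All 7 members with RNA processing genes were higher in RA. They were paired with Uhmk1, a kinase of splicing factors, Patl2, an mRNA-binding repressor of translation, Srsf6, a splicing factor, Mettl14, a subunit of the RNA adenosine methyltransferase, Dnajc8, a splicing-associated cochaperone, Rsrp1 and Syf2, both linked to the spliceosome, and Ssu72, a phosphatase of RNA polymerase II. Most gene-paired members were higher in RA, 34 of 44, so 7 members are too few to set this list apart. In the held table as a whole, 21 of 29 peaks of this list were higher in RA, a count not limited to members. Uhmk1 had the smallest gap of any gene-paired member, 50 bp, between its member of 950 bp higher in RA and a peak of 1100 bp higher in CIH paired with the same gene. Srsf6 had a peak of 250 bp at 250 bp, also higher in RA and shared with L3mbtl1.

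Members with genes of membrane traffic were higher in CIH at Stam, an endosomal sorting adaptor, and higher in RA at Sec16a, an organiser of endoplasmic reticulum exit sites, Rabgap1, a GTPase-activating protein, and Chmp4b, an ESCRT-III subunit. Chmp4b had a second peak 250 bp away, part of a chain, also higher in RA and also paired with Chmp4b. Among innate immune genes, Nfkb2 was higher in CIH, and the members at Alpk1 and Tifa, a kinase sensor of bacterial sugars and its adaptor, at Pde4b, a cAMP phosphodiesterase, and at Ptafr, the receptor of platelet-activating factor, were higher in RA. The last 3 members had their nearest peak at 8400, 8450 and 9850 bp, and at Pde4b it was higher in CIH.

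Chromatin genes gave 1 member higher in CIH, at the histone methyltransferase Ash1l, 100 bp from another member of 950 bp higher in CIH, and 2 higher in RA, at Hist2h2ab, a histone gene, and at Phf13, a PHD finger protein, with the ubiquitin ligase adaptor Klhl21. The ubiquitin list had a further member higher in RA at Rc3h2. The cell cycle and DNA damage list had Btg2 and Dclre1b, a repair nuclease, higher in CIH and Obfc1, a telomere protein, with the kinase Slk, higher in RA. Translation and folding genes were Aimp1, a scaffold of the tRNA synthetase complex, higher in CIH, and Tor3a and Dnaja1, higher in RA. Of 11 hypoxia and oxidative stress genes in the held table, 1 was paired with a member, Txndc12, a thioredoxin of the endoplasmic reticulum, higher in RA and 700 bp from a peak of 1100 bp higher in RA paired with Txndc12 and Btf3l4. None of the 16 lipid and sterol genes in the held table had a member.

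Outside the lists, Tagln2, an actin-binding protein, had a member of 550 bp, shared with Cfap45, 100 bp from a peak of 1550 bp paired with Igsf9 and Tagln2, both higher in CIH. Blcap was higher in CIH, 350 bp from a member of 850 bp of the same direction. Alg14 with Cnn3, and Slc44a3, were paired with 2 members of 1 cluster, 950 and 500 bp wide and 1350 bp apart, both higher in RA. This was the only cluster with genes at 2 members. Adamts4 with B4galt3, Cercam with Odf2, Shf with Slc28a2, Tpd52, E530001K10Rik and 1110037F02Rik had members higher in RA. The peak nearest to the Cry2 member was paired with another gene, Slc35c1.

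**Figure D5:**
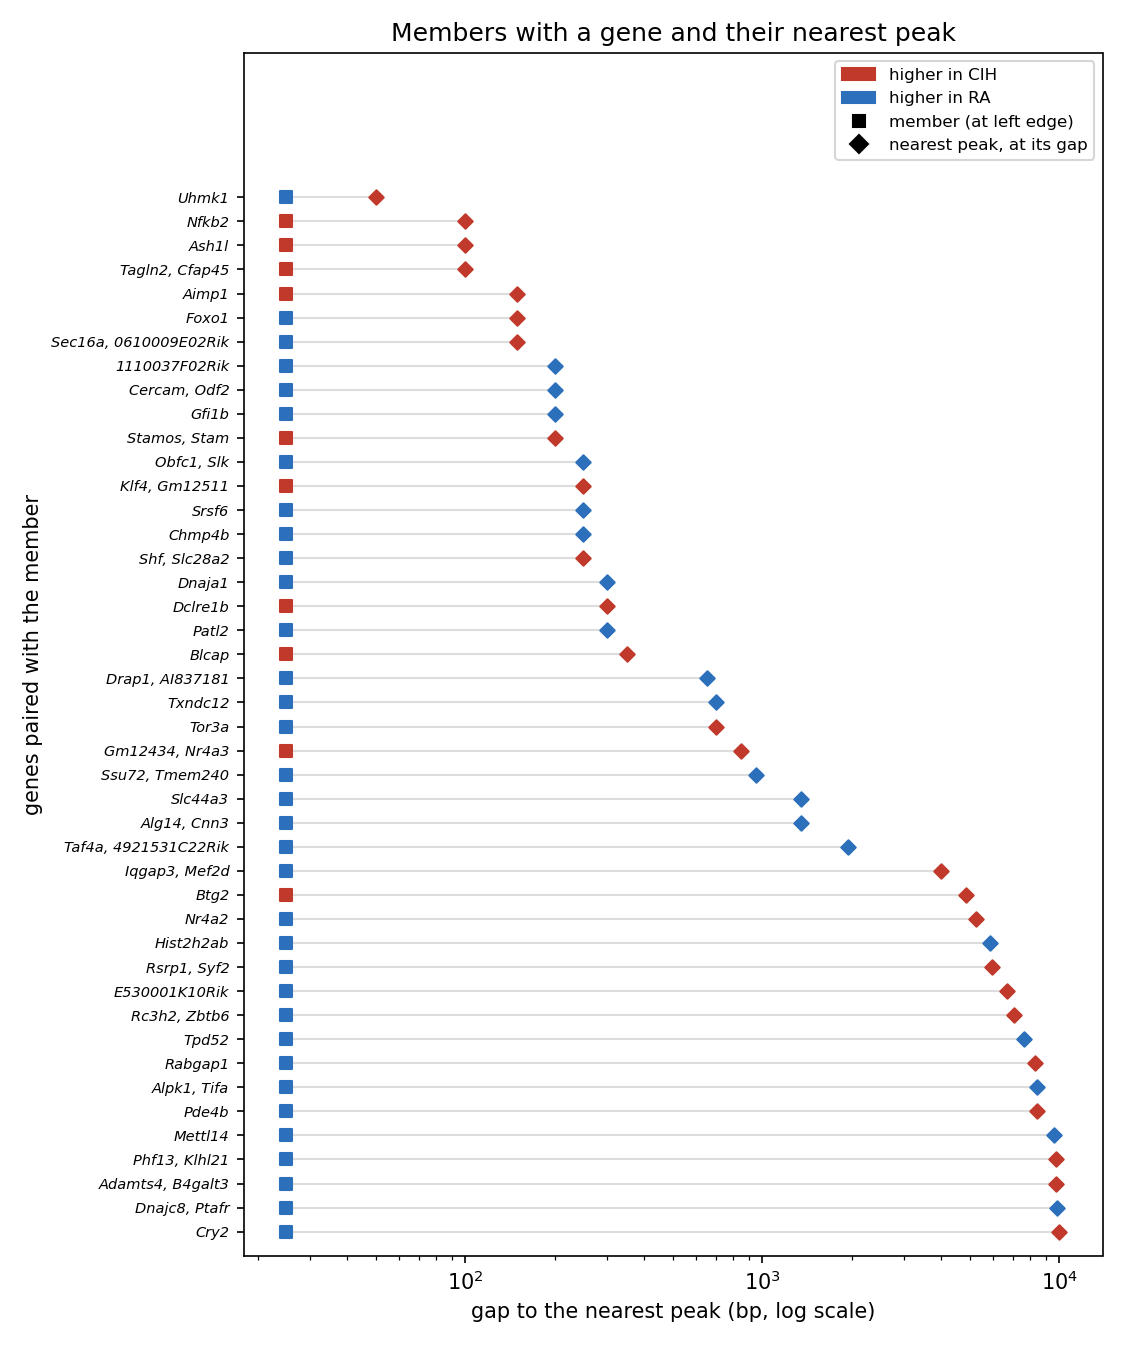
The 44 members with a gene, ordered by the gap to the nearest peak (bp, log scale). Squares at the left edge give the direction of the member and diamonds at the gap that of the nearest peak, red for higher in CIH and blue for higher in RA. All 10 red squares are joined to red diamonds, and 8 of them have a gap of at most 500 bp.

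RefSeq promoter windows (GRCm38, 250 bases before to 50 after each start) were found for 54 of the 63 gene and peak pairs, and 10 shared a run of 40 bases with the held part of the peak, of which at most 400 bases per peak are given. In 8 of these pairs the start lay inside the member: at base 9 of the member at B4galt3, 273 at Rc3h2, 462 at Chmp4b, 47 at Blcap, 255 at Dnaja1, 277 at Nr4a3, 245 at Syf2 and 58 at 4921531C22Rik. The Nfkb2 start lay beyond the end of its member of 450 bp, at base 535 counted from the first base of the member. A pair without a match says only that these letters were not in the bases held.

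Of the macrophage markers, Fcgr3 and Mertk were in the held table and neither had a member. Of the other 11 macrophage markers, and of the neutrophil, B cell, smooth muscle and endothelium lists, none was in it, and of the T and NK cell and fibroblast lists only Cd160 and Postn were, without a member. The held part covers only some chromosomes, so a marker gene on another one could not appear in it. The table also lists differential peaks only, so the purity of the cells could not be read from it.

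Bases shared with 1 of the 146 differential H3K27me3 peaks were found in 0.102% of the members, beside 35 of 20943 peaks in the whole list (0.167%). Of the mid-width peaks, 16 of 5199 at 10 to 100 kb (0.308%) and 12 of 1831 beyond 100 kb (0.655%) shared bases. The members that did were 2, too few to tell their share from that of the whole list. The first of these by position was chr4:108129951-108130250, 300 bp, which overlapped an H3K27me3 peak of 350 bp by 300 bp and which the paper's table of H3K27me3 peaks pairs with Gpx7, a peroxidase of the endoplasmic reticulum, and Zcchc11, an RNA uridylyltransferase. There H3K9ac and H3K27me3 were both higher in CIH, provided the sign has the same meaning in both lists. The nearest H3K9ac peak, 2650 bp away, was higher in RA. No further member lay within 1000 bp of an H3K27me3 peak.

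Among the autosomes, the share of members higher in CIH ran from 37.6% on chromosome 2 (149 members, 29.8 to 45.9) to 63% on chromosome 9 (92 members, 52.3 to 72.9), against 40.1% and 49.5% of all peaks there. On chromosome X, 10 of 13 members were higher in CIH (76.9%, 46.2 to 95), beside 58.3% of its 192 peaks. Chromosome 19 had the largest share of its peaks among the members, 12.1%, and chromosome 13 the smallest, 6.64%, apart from the mitochondrial genome, whose 2 peaks were both members.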

How the data were processed

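ChIP-Seq for H3K9ac and H3K27me3 was carried out on aorta macrophages with 1 library per mark and exposure (4 in all), so replicate error is unknown. The tools named in the submitters' processing notes are BWA 0.7.12, MACS2 2.1.0, Picard 1.121, SAMtools 1.2, Trimmomatic 0.32 and bedtools 2.23.0, and the build is mm9. Blacklisted and low complexity regions had been filtered out, and calls of more than 1 tool were combined, according to the paper. Each mark has 1 deposited list, in which a row holds the place, name and sign of a differential peak and a score that the authors set to 1000 throughout, and that was not used. The lists hold no read counts, and the yields per library given in the paper were not used here. Which sign is which was read from the 483 peaks of the paper's H3K9ac table held here, with 0 mismatches. The same reading was applied to the H3K27me3 list, which these peaks do not check.

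Gaps ran from the end of a peak to the start of the next, ties (3 members) went to the lower position, and at least 1 bp counted as an overlap. Counts were made with Python 3.11.15, pandas 2.3.3 and scipy 1.17.1 on scripts tested on simulated data. Positions are 1-based. Genes are those of the lists, of clusters with at least 2 gene-paired peaks and, as the rest of the gene-paired members, those added after their values were seen. Regions are the 10 clusters with the most members (ties by shorter span), the closest pairs and the overlaps with H3K27me3. Members, lists, gap classes and motifs were chosen with earlier results of these data known. The paper's table is held in part, so no gene was counted against all genes. The other member that shares bases with an H3K27me3 peak is not reported here.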

Additional observations from a re-analysis of the deposited data

How the results depend on the processing

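Of 27 alternatives, 21 kept the value within its interval or a count within 1.5 times. With a gap limit of 5000 bp there were 1136 members, of which 52.3% were higher in CIH and 59% had the direction of their nearest peak, and with 20000 bp there were 3216 members. Linking at 5000 bp gave 321 clusters with 2 or more members, 57.6% of them with 1 direction. Fewer members and clusters follow from the smaller limits themselves. Agreement within 500 bp stayed between 75.8% and 78.4% under 5 alternatives chosen after seeing the data (nearest peak a member, nearest peak touching none, mutual pairs counted once, a narrower width range, no chromosome X). Consecutive members up to 10000 bp apart agreed in 55.4% of 596 pairs, and in 55.2% of the 582 with no peak between them. No paired analysis was possible because each group has 1 library, and none could be left out. Without replicates, input or peak heights, the lists describe these libraries and not the exposures.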
